A study of Mus musculus with 8 samples.

Results

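The genes of the surrogate light chain and of the pre-B cell receptor (pre-BCR) that carries it were followed through the first 2 h after Ikaros (IKZF1) entered the nucleus of pre-B cells. The 6 genes were Igll1 (lambda 5), Vpreb1, Vpreb2, Vpreb3, Cd79a (Ig alpha) and Cd79b (Ig beta). Every peak whose summit lay in one of these genes or within 20 kb of it was taken (GENCODE M21, GRCm38), and these peaks fell into 63 of the 174718 regions that the 8 peak lists form together. Igll1 and Vpreb1 are neighbours and had the same 14 regions. Vpreb2 had 10, Vpreb3 13, Cd79a 12 and Cd79b 14, so the 6 genes stand at 5 separate loci.

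The pre-BCR joins an immunoglobulin heavy chain to the surrogate light chain, which lambda 5 and a VpreB protein make up before a light chain gene is rearranged. CD79a and CD79b are its signalling subunits and stay with the mature receptor, while the surrogate light chain genes are silenced as pre-B cells differentiate. Ikaros is known as a repressor of Igll1 in this lineage. Vpreb3 is not part of the surrogate light chain itself and was named for its likeness to the other VpreB genes.

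Accessible chromatin was measured by ATAC-seq, in which Tn5 transposase inserts adapters into open DNA. The cells were B3, a mouse line with a pre-B phenotype that came from a lymphoma, and all carried Ikaros-ERt2, a fusion that 4-hydroxytamoxifen (4-OHT) brings into the nucleus, so cells at 0 h held the construct too. Libraries came from untreated cells (called 0 h) and from cells kept in 500 nM 4-OHT for 30 min, for 1 h and for 2 h, 2 libraries for each of the 4 times. No library had solvent or 4-OHT without the construct, so an effect of 4-OHT cannot be told apart from one of Ikaros. Nothing states that the 2 replicates came from separate cultures, so the p-values below measure the spread between these libraries. The B-lineage markers Pax5, Ebf1, Rag1, Rag2 and Il7r and the 6 genes themselves had a peak within 1 kb of a start site in both 0 h lists. Of the markers of other lineages, 1 of 6 T-lineage genes (Lck), 1 of 5 myeloid genes (Lyz2), 0 of 3 erythroid genes and 1 of 3 fibroblast genes (Col1a1) had one in both 0 h lists. The lists held 85903 to 103897 peaks, and the median number of fragments per peak summit was 11 to 14. As bulk libraries, they cannot tell a site open in fewer cells from one less open in every cell.

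3 stretches of sequence are shown first because the results below turn on the peaks over them. They are the 250 bases before the start sites of Igll1 (chr16:16863986-16864235, minus strand), Vpreb1 (chr16:16869256-16869505, minus strand) and Vpreb2 (chr16:17980178-17980427, plus strand), read from the RefSeq copy of GRCm38. Capitals mark the words GGAA and GGGA, which hold the core that Ikaros binds, and the same words read on the other strand (TTCC and TCCC), with overlapping words joined.
Igll1 upstream: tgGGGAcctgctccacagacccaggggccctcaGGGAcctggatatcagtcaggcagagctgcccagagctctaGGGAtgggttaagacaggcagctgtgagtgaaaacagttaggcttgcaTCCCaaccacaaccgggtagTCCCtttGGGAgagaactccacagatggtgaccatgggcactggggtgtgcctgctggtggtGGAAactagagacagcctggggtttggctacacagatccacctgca
Vpreb1 upstream: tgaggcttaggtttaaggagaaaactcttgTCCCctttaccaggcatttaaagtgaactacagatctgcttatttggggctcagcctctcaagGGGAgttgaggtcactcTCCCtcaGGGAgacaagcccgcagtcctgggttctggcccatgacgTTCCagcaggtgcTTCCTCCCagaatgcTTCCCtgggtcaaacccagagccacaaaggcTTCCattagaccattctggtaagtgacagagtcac
Vpreb2 upstream: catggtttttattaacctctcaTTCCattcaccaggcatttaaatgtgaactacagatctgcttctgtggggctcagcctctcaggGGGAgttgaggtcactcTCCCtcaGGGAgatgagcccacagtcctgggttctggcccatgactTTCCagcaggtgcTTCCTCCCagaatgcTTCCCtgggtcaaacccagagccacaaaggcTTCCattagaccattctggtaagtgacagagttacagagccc

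The Igll1 stretch held 7 of these words and the Vpreb1 and Vpreb2 stretches 10 each. Of 32851 RefSeq promoters, cut to the same 250 bases, 98.9% held at least 1 word, 42% held 7 or more and 14.2% held 10 or more. The stretches before Vpreb3, Cd79a and Cd79b held 8, 5 and 10. CCCNNGGG, the palindromic core that EBF1 is known to bind, occurred 1 time before Igll1, 2 times before Cd79b and in 11.8% of all promoters. The Vpreb1 and Vpreb2 promoters are near copies of each other: over 462 aligned bases around the 2 peaks, 431 were identical (93.3%), and the longest identical run was 91 bases. Of the 207 different stretches of 75 bases in the Vpreb1 peak region, 17 also occur at the Vpreb2 locus. How the authors treated reads that match both places is not given in the sources used here, so fragments in that run cannot be assigned with certainty to one of the 2 genes.

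A peak's strength in a list is given as the percentile of its fold, which is the fragment pileup at the summit over the local background, among all peaks of that list (100 is the strongest). Figures for a time point are given as replicate 1 and replicate 2. The peak over the Vpreb1 promoter (chr16:16869207-16869487, summit 87 bp upstream of the start) stood at percentiles 69.7 and 53.7 at 0 h and 16.4 and 17.9 after 30 min, and no peak was called there in any list of 1 h or 2 h. Its summit held 79 and 43 fragments at 0 h and 20 and 17 after 30 min. The peak was thus weaker in both libraries within 30 min and was gone from all 4 later lists.

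The Vpreb2 promoter behaved alike. Its peak (chr16:17980159-17980524, summit 95 bp upstream of the start) stood at percentiles 81.2 and 72.2 at 0 h, 36.0 and 28.3 after 30 min, and was absent after 1 h and 2 h. Fragments at the summit were 35 and 21 at 0 h and 9 and 8 after 30 min. In a wider ranking of the 126504 regions present in at least 2 lists, an absent peak took the lowest rank. Of 55 member regions ranked in this way, limma put 0 lower after 30 min, 3 after 1 h and 3 after 2 h at an adjusted p under 0.01, against 0.549%, 4.33% and 6.27% of all regions. Without 1 library these counts were 0, 0 to 3 and 0 to 4. The 3 after 2 h were these promoters and a peak upstream of Cd79b described below. Each entered that ranking through the lists that held it, and its absent values were set to 1 rank with no spread of their own, so these counts describe the ranking and no p-value is given for the single regions. An absent peak means only that the caller's threshold was not met. The weakest peak within 10 kb of the Vpreb1 promoter held 29 and 22 fragments after 1 h and 14 and 18 after 2 h. Those counts are not the threshold itself, which depends on the local background.

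**Figure D1:**
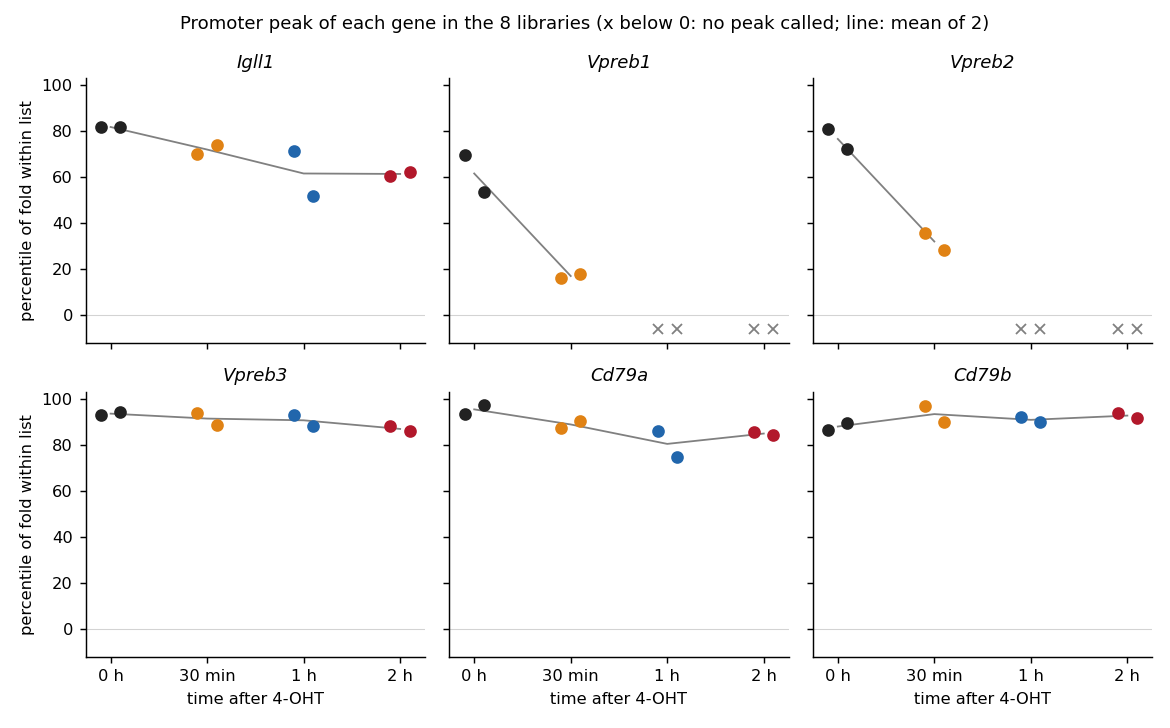
Percentile of the fold within its list (vertical axis) of the peak over the promoter of each gene, by time after 4-OHT, with 1 point a library and a line through the mean of 2 libraries, and crosses below 0 for libraries with no peak called. The Vpreb1 and Vpreb2 peaks fall after 30 min and are absent from all libraries of 1 h and 2 h, while the peaks of the other 4 genes are present in all 8.

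The Igll1 promoter peak remained in all 8 lists but lost most of its fragments. The peak (chr16:16863801-16864384, summit 121 bp upstream of the start) held 122 and 94 fragments at 0 h, 50 and 44 after 30 min, 35 and 22 after 1 h, and 26 and 23 after 2 h. The percentiles moved less: 82.1 and 81.7 at 0 h, 70.3 and 73.9 after 30 min, 71.6 and 51.8 after 1 h, and 60.7 and 62.3 after 2 h. All 6 treated libraries lay below both 0 h libraries by either measure. Every list held a peak in 47875 regions. Of these, 17.7%, 22.1% and 24.3% had both percentiles below both at 0 h after 30 min, 1 h and 2 h, each time taken alone. Ranked within these regions, the Igll1 promoter fell by 0.97 ± 0.29 normal-score units to 2 h (SE, limma adjusted p = 0.0404), which does not pass 0.01.

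The gap between the 2 measures comes with the local background, by which the fold is divided. Around the Igll1 promoter this background was 18.3 and 22.0 times the background of the library at 0 h, 9.3 and 9.0 times after 30 min, 6.1 and 6.0 times after 1 h, and 5.6 and 4.9 times after 2 h. At 0 h it exceeded that of 99.9% of the tested regions, whose median was 2.4 times. Its log2 change from 0 h to 2 h was -1.95, and 69 of the 47875 tested regions (0.144%) fell as much or more, while the median region changed by 0.04. Peaks were called without a control, so this background came from the same library and can include the peak and its neighbours. Whether the surroundings outside the peaks changed was not tested. A fold over a background that falls moves less than the fragments do.

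**Figure D2:**
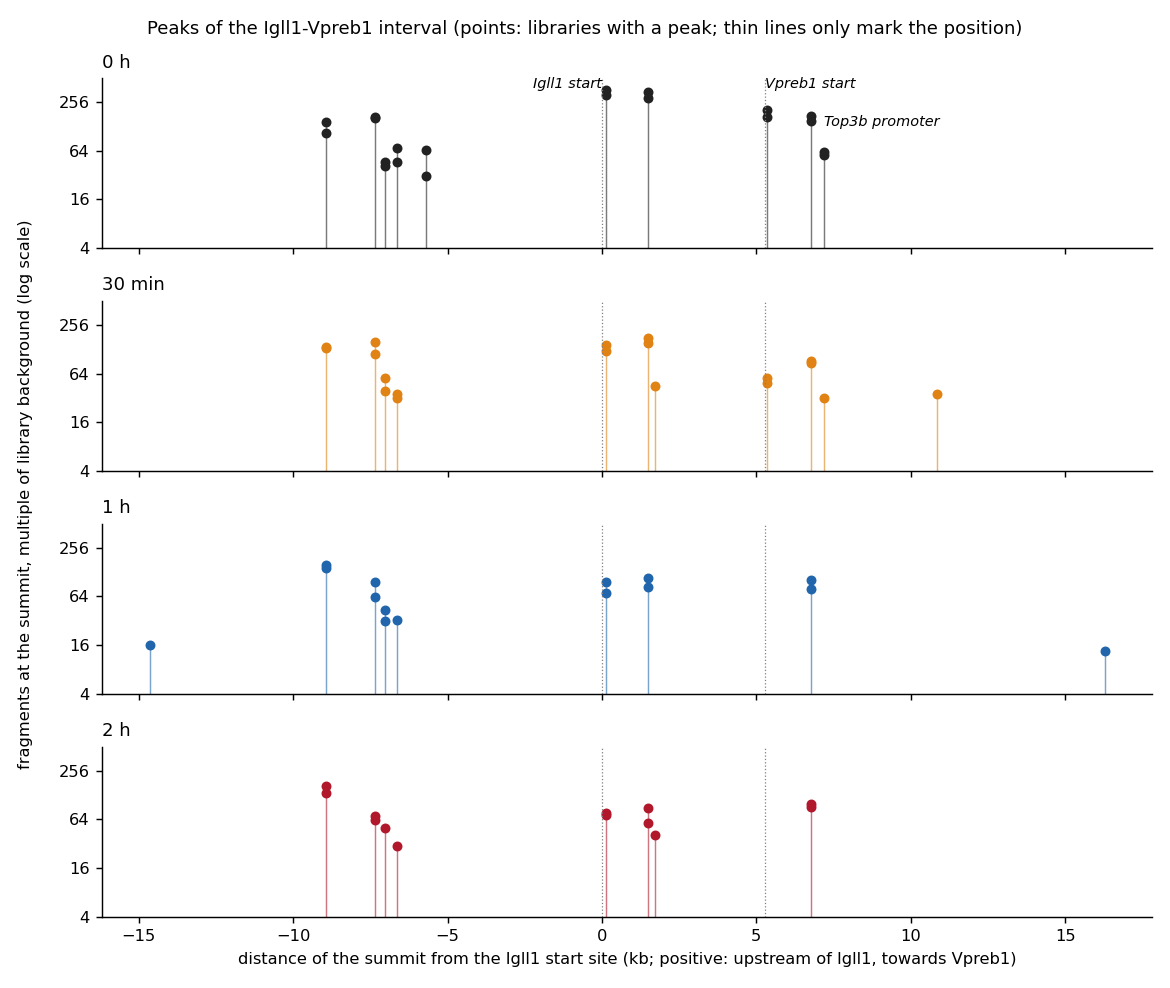
Fragments at the summit as a multiple of the background of the library (vertical axis, log scale) for the peaks of the Igll1-Vpreb1 interval, by distance of the summit from the Igll1 start site in kb, with 1 panel a time, 1 point a library and thin lines that only mark positions. The peaks at the Igll1 promoter and 1.5 kb upstream of it are the highest at 0 h and fall through 2 h, the Vpreb1 promoter has points only at 0 h and 30 min, and the peak 8.9 kb downstream of the Igll1 start keeps its height.

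Fragments at the summit were therefore also compared as multiples of the background of their own library, on a log2 scale and centred on the median tested region of each library, since that median rose by 0.05 to 30 min, 0.16 to 1 h and 0.22 to 2 h before centring. The Igll1 promoter was at 314 and 362 times the background at 0 h, 123 and 144 after 30 min, 95.6 and 70.5 after 1 h, and 77.2 and 72.6 after 2 h. Centred, it fell by 1.34 ± 0.22 on the log2 scale after 30 min (SE, limma adjusted p = 0.00818), by 2.13 ± 0.22 after 1 h (limma adjusted p = 0.000337) and by 2.31 ± 0.22 after 2 h (limma adjusted p = 0.000134). It was the only member region called after 30 min, a call that was lost without any 1 of the 8 libraries, while its call after 2 h held without any 1 library (adjusted p 0.000353 to 0.00194). Of the 28 tested member regions, 1 was lower after 30 min, 6 after 1 h and 5 after 2 h by this measure, or 3.57%, 21.4% and 17.9%, against 1.29%, 6.59% and 9.35% of all tested regions. Without 1 library the 3 counts were 0, 2 and 3 to 4. None was higher at any of the 3 times, against 0.32%, 3.46% and 5.41% of all, and 2, 2 and 3 had a higher value at an unadjusted p under 0.05.

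A peak 1482 bp upstream of the Igll1 start (chr16:16865216-16865548) fell beside it. Its sequence around the summit (chr16:16865367-16865548, minus strand) is shown because this peak fell beside the promoter. It held 3 words of the Ikaros core in 182 bases, and 76.8% of tested regions held 3 or more in the 200 bp around their summit.
Igll1 1482 bp upstream: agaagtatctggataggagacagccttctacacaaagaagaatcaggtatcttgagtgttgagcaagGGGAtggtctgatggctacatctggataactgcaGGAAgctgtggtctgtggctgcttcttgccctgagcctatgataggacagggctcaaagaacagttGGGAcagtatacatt
It held 110 and 88 fragments at 0 h, 62 and 53 after 30 min, 39 and 26 after 1 h, and 30 and 18 after 2 h. Centred fragments over background fell by 0.93 ± 0.24 on the log2 scale after 30 min (limma adjusted p = 0.045), by 1.81 ± 0.24 after 1 h (limma adjusted p = 0.00095) and by 2.26 ± 0.24 after 2 h (limma adjusted p = 0.00022). By rank the change after 2 h was -0.81 ± 0.31 (limma adjusted p = 0.0928), and the percentiles after 30 min, 76.7 and 78.8, lay above those at 0 h, 72.6 and 74.4. Rank and fragments thus pointed in opposite directions for this peak after 30 min, and neither change was called at 0.01. Of all tested regions, 33.9% had both 30 min percentiles above both at 0 h.

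Further out in the interval the peaks did not move together. The peak 7349 bp downstream of the Igll1 start (chr16:16856399-16856698) stood at 165 and 162 times the background at 0 h, 111 and 157 after 30 min, 62.8 and 96.2 after 1 h, and 62.3 and 69.4 after 2 h, and fell by 1.45 ± 0.25 to 2 h (limma adjusted p = 0.00232, up to 0.022 without 1 library). By contrast, the peak 8937 bp downstream (chr16:16854918-16855157) stood at 105 and 146 times at 0 h and at 134 and 164 times after 2 h, a change of 0.11 ± 0.23 (limma adjusted p = 0.746). By rank the same peak went from percentiles 66.8 and 75.5 to 89.6 and 95.4 (limma adjusted p = 0.0359), while its local background fell from 7.7 and 8.6 to 4.2 and 4.2 times that of the library. The promoter of Top3b (chr16:16870593-16871018), a topoisomerase gene beside Vpreb1, went from 149 and 173 times the background at 0 h to 97.9 and 91.5 after 2 h and fell by 0.91 ± 0.20 on the centred scale (limma adjusted p = 0.0088, 0.0109 to 0.0444 without 1 library). By rank no change was called, with percentiles 72.9 and 76.6 at 0 h and 78.8 and 77.6 after 2 h (limma adjusted p = 0.982).

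**Figure D3:**
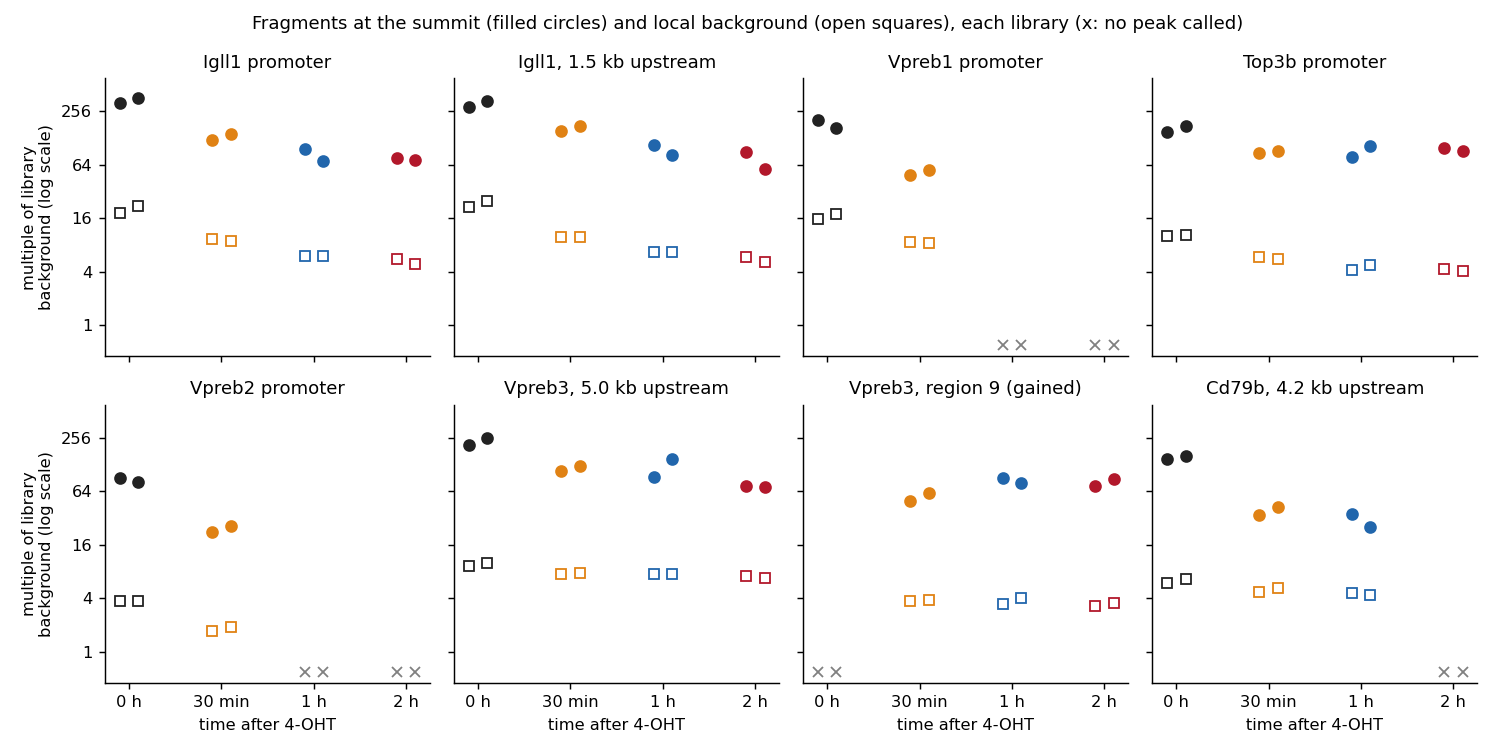
Fragments at the summit (filled circles) and local background (open squares) as multiples of the library background (vertical axis, log scale) by time after 4-OHT, 1 point a library, for 8 member regions, with crosses where no peak was called. Around Igll1 and Vpreb1 the squares fall with the circles, from 18.3 and 22.0 to 5.6 and 4.9 at the Igll1 promoter, while around the Vpreb3 and Cd79b peaks they change less.

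At the Vpreb2 locus the 2 regions lost after 2 h were the promoter and the peak beside it. A peak 1017 bp upstream of the start (chr16:17979289-17979494) stood at percentiles 41.4 and 58.5 at 0 h and was absent from both 2 h lists. The strong peak 10803 bp upstream (chr16:17969447-17969828) was present throughout, at percentiles 95.2 and 92.4 at 0 h and 81.2 and 93.2 after 2 h (limma adjusted p = 0.255). The peak 6506 bp downstream (chr16:17986828-17986999) went from 73.0 and 88.9 to 92.0 and 91.8 (limma adjusted p = 0.286). The first of these overlapped between the groups, and the second was higher in both 2 h libraries without passing the test. Of all tested regions, 40.6% had both 2 h percentiles above both at 0 h.

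Vpreb3 held the only member region called by rank among those with a peak in every list. This peak (chr10:75937881-75938264) lies 5045 bp upstream of the Vpreb3 start, within the gene Gm867, and is nearer to the start of Chchd10, at 2439 bp. Percentiles were 88.5 and 91.0 at 0 h, 71.9 and 72.6 after 30 min, 62.6 and 80.4 after 1 h, and 49.6 and 50.8 after 2 h, and fragments at the summit went from 84 and 67 to 25 and 23. The rank fell by 1.79 ± 0.32 normal-score units to 2 h (limma adjusted p = 0.0052), and centred fragments fell by 1.83 ± 0.24 on the log2 scale (limma adjusted p = 0.000519). The rank call was lost without any one of the 0 h or 2 h libraries (limma adjusted p up to 0.041), and the fragment call was kept (0.000577 to 0.00603).

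A peak that no 0 h list held was called nearby. It lies 243 bp upstream of the first start site of Vpreb3 (chr10:75942772-75942934). Percentiles were 57.4 and 61.6 after 30 min, 82.9 and 70.6 after 1 h, and 73.9 and 79.1 after 2 h, with 19 to 33 fragments at the summit. At 0 h the weakest called peak within 10 kb held 23 and 19 fragments, over a local background of 4.12 and 2.86 fragments. The new peak had a local background of 1.11 to 1.49 in the treated libraries, so those counts set no threshold for it. At local backgrounds of 1.14 and 1.01, the 0 h lists called a peak of 13 and 11 fragments near Cd79a. A weaker site could still have gone uncalled at 0 h. In the wider ranking with absent peaks lowest, the peak 243 bp upstream was the 1 member region called higher after 1 h and after 2 h, against 0 after 30 min. Of all regions, 0.0269%, 1.33% and 2.36% were called higher after 30 min, 1 h and 2 h. It entered that ranking only through treated libraries, and both 0 h values were set to the lowest rank, so no p-value is given. Its sequence around the summit (chr10:75942772-75942913, plus strand) held 1 word of the Ikaros core, while 97.8% of tested regions held 1 or more in 200 bp.
Vpreb3 243 bp upstream: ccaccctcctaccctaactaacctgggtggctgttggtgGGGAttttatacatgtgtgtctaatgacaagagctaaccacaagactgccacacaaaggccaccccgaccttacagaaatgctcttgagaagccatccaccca

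The main Vpreb3 promoter peak, at the second start site (chr10:75948167-75948368, summit 42 bp upstream), was strong throughout, at percentiles 92.9 and 94.4 at 0 h, 94.1 and 88.9 after 30 min, 93.2 and 88.3 after 1 h, and 88.1 and 85.9 after 2 h (limma adjusted p = 0.157 after 2 h). The 2 h libraries lay below the 0 h libraries, but not beyond what the test could call. Of all tested regions, 24.3% had both 2 h percentiles below both at 0 h. At the promoter of Mmp11 (chr10:75932383-75932655), a metalloproteinase gene 10588 bp upstream of Vpreb3, percentiles went from 24.2 and 4.8 to 57.4 and 51.1 (limma adjusted p = 0.0279), the largest rise in percentile points at the locus among regions in all 8 lists.

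The signalling subunits kept their promoter peaks. The Cd79a promoter (chr7:24897202-24897590, summit 44 bp upstream) stood at percentiles 93.6 and 97.4 at 0 h, 87.3 and 90.6 after 30 min, 86.0 and 75 after 1 h, and 85.8 and 84.2 after 2 h. All treated libraries were below both 0 h libraries. Of all tested regions, 17.7%, 22.1% and 24.3% had both percentiles below both at 0 h after 30 min, 1 h and 2 h, each time taken alone. The rank difference of the promoter had a limma adjusted p of 0.0329 after 1 h and 0.0531 after 2 h. Centred fragments fell by 1.03 ± 0.22 after 1 h (limma adjusted p = 0.00904). That is close to the threshold, and most member calls by fragments after 1 h were lost without 1 library. After 2 h the fragments of the promoter were lower by 0.89 ± 0.22, which does not pass (limma adjusted p = 0.0137). Beside it, the peak 969 bp upstream (chr7:24896268-24896562) went from 57.8 and 63.3 to 72.1 and 73.7 (limma adjusted p = 0.508), and a weak peak 856 bp into the gene (chr7:24898160-24898275), at percentiles 0.6 and 37.4 at 0 h, was called at no later time. The largest rise in percentile points among the regions of the locus in all 8 lists, from 36.5 and 52.0 to 67.9 and 51.3, lay in an intron of Arhgef1 (chr7:24905060-24905193, limma adjusted p = 0.606). A peak in an untranslated exon of Rps19 (chr7:24889634-24889755) was present in both 2 h lists, at 63.5 and 17.5, and in neither 0 h list.

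The Cd79b promoter (chr11:106314441-106314713, summit 70 bp upstream) stood at percentiles 86.4 and 89.7 at 0 h, 96.8 and 90.1 after 30 min, 92.0 and 89.9 after 1 h, and 94.0 and 91.6 after 2 h (limma adjusted p = 0.567 after 2 h). Its fragments after 2 h differed from 0 h by -0.32 ± 0.21 on the centred log2 scale (limma adjusted p = 0.28). A weaker peak 788 bp into the gene (chr11:106313691-106313820) was at percentile 25.4 in 1 list of 0 h and at 14.1 in 1 list of 2 h, with the other list of each time lacking it.

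A peak with a steep loss lay 4197 bp upstream of Cd79b (chr11:106318812-106319061), in an untranslated exon of the sodium channel gene Scn4a. The peak stood at percentiles 87.3 and 85.5 at 0 h, 25.8 and 26.1 after 30 min, 25.6 and 1.7 after 1 h, and was absent after 2 h, with 58 and 42 fragments at 0 h, 14 and 13 after 30 min, and 13 and 8 after 1 h. It was weaker in both libraries of 30 min and was absent from both of 2 h, where the weakest called peak within 10 kb held 10 and 9 fragments. The 200 bp around its summit held 9 words of the Ikaros core, as did those of the Vpreb1 and Vpreb2 promoters, and 4.96% of tested regions held as many. Another peak, 7023 bp downstream of the Igll1 start, held 12 words. That peak stood at percentiles 6.4 and 6.2 at 0 h and at 45 in 1 library of 2 h, with none called in the other. The Rps19 promoter peak near Cd79a (chr7:24883897-24884671) also held 12. Its percentiles were 83.1 and 80.6 at 0 h and 76.9 and 76.4 after 2 h (limma adjusted p = 0.341). Centred fragments there fell by 0.88 ± 0.21 (limma adjusted p = 0.0124). A peak at a start site of Arhgef1 (chr7:24902906-24902969) held 12 too and was called only in the 30 min lists. Whether word counts went with the changes was not tested. The peak 8560 bp downstream of the Cd79b start (chr11:106305750-106306048) went from 67.4 and 51.0 at 0 h to 24.8 and 17.9 after 1 h and 25.6 and 39.3 after 2 h (limma adjusted p = 0.0103 and 0.0301). Centred fragments there fell by 1.08 ± 0.24 after 1 h (limma adjusted p = 0.00989), close to the threshold. Most member calls of this kind were lost without 1 library. The largest rise in percentile points, though not in normal scores, among the regions of the locus in all 8 lists lay in an intron of Scn4a (chr11:106329216-106329382), from 27.1 and 37.1 at 0 h to 59.7 and 48.1 after 2 h (limma adjusted p = 0.237).

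**Figure D4:**
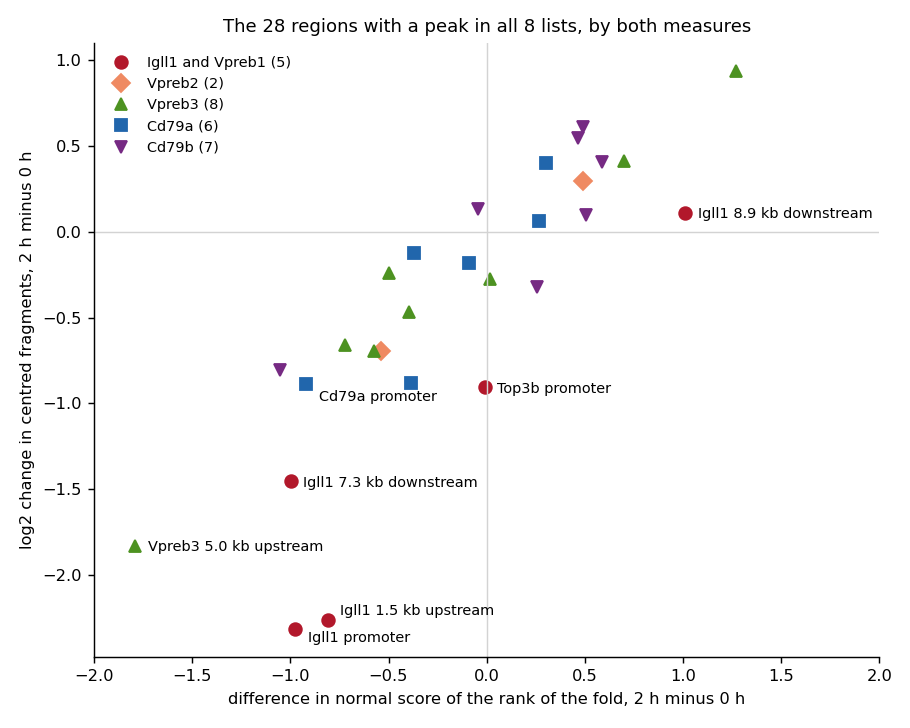
Change from 0 h to 2 h of the 28 member regions with a peak in all 8 lists, as the difference in normal score of the rank of the fold (horizontal axis) and as the log2 change in centred fragments over background (vertical axis), with 1 symbol a region and colour by locus. The Igll1 promoter and the peak 1.5 kb upstream lie at -2.31 and -2.26 in fragments and at -0.97 and -0.81 in rank, and the peak 8.9 kb downstream lies at 1.01 in rank and 0.11 in fragments.

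The counts over all 63 regions stand beside those of the whole series. By rank, 0 of the 28 tested member regions were lower after 30 min, 0 after 1 h and 1 after 2 h (3.57%), against 0%, 2.51% and 4.71% of all tested regions. None was higher at any time, against 0%, 1.1% and 2.28%, and at an unadjusted p under 0.05 the limma fit gave 2, 5 and 7 lower and 2, 2 and 3 higher. Their median percentile moved by 4.3, -0.3 and 2.6 points after 30 min, 1 h and 2 h, against 2.8, 3.6 and 3.7 points for all tested regions. With percentiles taken among regions in all 8 lists, the shift after 2 h was -1.8 points, so its direction depends on that choice. Of 40 member regions with a peak in both 0 h lists, 3 were lost after 30 min, 7 after 1 h and 9 after 2 h (7.5%, 17.5% and 22.5%), meaning absent from both lists of that time, against 10.9%, 14.6% and 16.6% of all such regions. Of 17 in neither 0 h list, 3, 5 and 5 were gained (17.6%, 29.4% and 29.4%), against 11.1%, 19.2% and 23.9%.

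The 9 regions lost after 2 h were also counted by locus, among regions with a peak in both 0 h lists. They were 3 of 10 near Igll1 and Vpreb1 and 2 of 5 near Vpreb2. Near Cd79a they were 2 of 8, near Cd79b 2 of 9 and near Vpreb3 0 of 8, against 16.6% of all such regions. These are few regions per locus. Near Igll1, Vpreb1 and Vpreb2, 16 and 15 of 24 regions held a peak at 0 h, 16 and 14 after 30 min, 12 and 13 after 1 h, and 11 and 10 after 2 h. Near Vpreb3, Cd79a and Cd79b, 27 and 28 of 39 held one at 0 h and 30 and 29 after 2 h. By centred fragments, 4 of the 5 tested regions of the Igll1-Vpreb1 interval were lower after 2 h, and 1 of the other 23, against 9.35% of all tested regions. These 5 are neighbours at 1 locus. The calls at the Top3b promoter and 7349 bp downstream of the Igll1 start depended on single libraries, as given above. The split by locus was made after the values were seen and was not tested.

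The genes most alike to each promoter by pattern were found among 12086 protein-coding genes with a promoter peak, by the root mean square difference of the 8 percentiles, with an absent peak set to 0. For Vpreb1 they were Tac4 (5.1 points), Dusp15 (5.5) and Ccdc170 (6.4), and for Vpreb2 Tex44 (6.3), Lxn (6.5) and Gbp8 (7.4), all with peaks absent from both 2 h lists. Among the genes nearest to Cd79a were Cd93 (1.9 points) and C8g (2.6), and among those nearest to Cd79b were Ppid (1.7) and Trp53inp2 (2.0). Igll1 was nearest to the promoter that Rundc1, Ptges3l and Gm27029 share (3.1 points), and Vpreb3 to that of Abhd17b and 1110059E24Rik and to Ralb.

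The rest of the pathway was taken from 2 lists. Of 182 tested regions near 20 genes of pre-BCR signalling, 0, 6 and 14 were lower by rank after 30 min, 1 h and 2 h and 0, 0 and 3 were higher, so 7.69% were lower after 2 h against 4.71% of all, and 1.65% were higher against 2.28%. By presence, 12.7% of those in both 0 h lists were lost after 2 h against 16.6% of all, and 35.6% of those in neither were gained against 23.9%. The lower ones lay near Ptpn6 (3), a phosphatase that dampens the receptor's signal, near Plcg2 (3), the phospholipase downstream of it, near Pik3cd (2) and the adaptor Pik3ap1 (2), and near the kinase Lyn, the phosphatase Inpp5d, the co-receptor Cd22 and the exchange factor Vav1 (1 each). The higher ones lay near Inpp5d, Lyn and Plcg2. In Lyn, an intronic region fell from a mean percentile of 79.4 ± 2.3 to 5.8 ± 0.95 by 2 h (SD, n = 2, limma adjusted p = 0.000968), while a region 804 bp from a start site rose from 8.3 ± 12 to 73.5 ± 4 (SD, n = 2, limma adjusted p = 0.00794).

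Of 147 tested regions near 15 genes for factors that act on the surrogate light chain genes, 0, 7 and 13 were lower and 0, 3 and 6 higher, so 4.76% were lower after 1 h and 8.84% after 2 h, against 2.51% and 4.71% of all, and 2.04% and 4.08% were higher, against 1.1% and 2.28%. By presence, 18% were lost after 2 h against 16.6% of all, and 22.2% gained against 23.9%. Lower regions lay near Ebf1 (3), an activator of these genes, near Tcf12 (2) and Ikzf1 (2), and near Bach2, Pax5, Irf8, Ikzf3, Sox4 and Runx1 (1 each). Higher ones lay near Ebf1 (2), Bach2, Tcf12, Tcf3 and Runx1 (1 each). In Ebf1, an intronic region fell from 97.9 ± 1.5 to 34.0 ± 22 by 2 h (SD, n = 2, limma adjusted p = 0.00135) and another rose from 27.8 ± 1.8 to 87.4 ± 6.6 (SD, n = 2, limma adjusted p = 0.00221). In Bach2, an intronic region fell from 87.5 ± 1.6 to 19.2 ± 7.5 (SD, n = 2, limma adjusted p = 0.000958).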

How the data were processed

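ATAC-seq peak lists of 8 libraries of B3 cells with Ikaros-ERt2 were analysed, 2 each at 0 h, 30 min, 1 h and 2 h. Per the methods and the submitters' processing notes, the authors aligned reads with BWA 0.7.17, shifted ends for Tn5, kept fragments under 120 bp and called peaks with MACS2 2.1.2 on each library, without a control. The methods name a human genome, but 0 peaks fell outside the mouse GRCm38 chromosomes, the build of the processing notes. The deposited columns hold a ratio (the fold of the pileup over local background), −log10 p-values and −log10 q-values, and a score that was not used. Whether reads matching several places were kept is not given in the sources used here.

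Peaks sharing 1 bp or more formed consensus regions. Fragments at the summit and the local background were recovered from the fold and the −log10 p-value, which the caller derives from a Poisson model, and a whole number of fragments fitted 100.0% of peaks (tolerance 0.0005 in −log10 p-value). The most frequent background of a list, 0.26 to 0.405 fragments per base, stood for the depth of the library. Regions in all 8 lists were ranked by fold. The ranks, as normal scores, entered limma 3.58.1 (R 4.3.3, 4 groups in 1 model), with Benjamini-Hochberg adjustment over all 47875 and a threshold of 0.01. On data simulated for 2 h against 0 h over 47875 regions, 50 regions were shifted by each size. Of these, 0% were called at 1 unit, 62% at 2 and 94% at 3. The real contrast called 3348 regions, so its cut-off in unadjusted p was less strict. These rates are therefore not those of the real test. Since a rank needs a peak, 28 of the 63 member regions could be tested. 8 of the 63 had a peak in only 1 list and entered no test.

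Named regions were those within 1 kb of a member's start site, those past the threshold, the largest fall and rise of each gene by 2 h among regions in all lists, and those lost or gained at 2 h with a percentile over 50. The regions 1482 bp upstream of Igll1 and at the Top3b promoter, and the use of fragments beside ranks in the text, were chosen after values were seen. Members and lists were chosen with earlier results of these data known. Start sites were those of the GENCODE M21 basic set. Of the 6 genes, 5 matched the RefSeq promoter table (GRCm38.p6), and Cd79b did not. Results for 1 lineage marker and for 2 genes alike in pattern are not reported here. Python 3.11.15 was used.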

Additional observations from a re-analysis of the deposited data

How the results depend on the processing

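The calls by rank among the 28 tested member regions were recounted under other settings. In the main setting they were 0 lower at 30 min, 0 at 1 h and 1 at 2 h, with 0 higher at each time. With centred fragments the counts lower were 1, 6 and 5, and with fragments not centred 1, 2 and 4, with 1 higher at 2 h. With regions in at least 2 lists 3 were lower and 1 higher at both 1 h and 2 h. With the −log10 p-value in place of the fold 1 was lower at 1 h and 3 at 2 h, and with ranks among all peaks 0 at 2 h. At an adjusted p under 0.05, 2 were lower and 1 higher after 1 h, and 3 lower and 2 higher after 2 h. A trended, robust prior gave 1 lower after 1 h, and 1 higher after 1 h and again after 2 h. A −log10 q of at least 5 gave 1 lower at 1 h. Regions lost (3, 7 and 9) became 7, 11 and 17 within 50 kb, and those lost at 30 min became 1 with a −log10 q of at least 5 and 0 with lists of equal length. Regions gained (3, 5 and 5) became 5 at 30 min within 50 kb, 2 at 1 h and 2 at 2 h with a −log10 q of at least 5, and 2 and 3 with lists of equal length. The median percentile shift at 2 h, 2.6 points, was -1.8 when percentiles were taken among regions in all 8 lists, and peaks near members rose from 43.1 to 71.9 per list within 50 kb. Regions near the other genes of the pathway that were lower at 2 h, 27, became 47 with centred fragments, 52 in at least 2 lists and 48 at an adjusted p under 0.05. Apart from what each setting does to the regions tested or counted, the cause of these changes was not tested.

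Without 1 library, the counts lower by rank were 0 to 0, 0 to 0 and 0 to 1 at the 3 times. They were 0 to 0, 2 to 2 and 3 to 4 with centred fragments, and 0 to 0, 0 to 3 and 0 to 4 in at least 2 lists. Those higher were 0 to 0 by rank, 0 to 1 at 2 h with centred fragments, and 0 to 1 at 1 h and at 2 h in at least 2 lists. Regions lost were 3 to 5, 7 to 9 and 9 to 11, those gained 3 to 9, 5 to 8 and 5 to 7, and the pathway count 0 to 24. By their definition, counts of regions lost and gained cannot fall when a library is left out, so their ranges are no check on them. In the fits, the lone library of a time was assumed to vary like the others.

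With a replicate block, 0, 0 and 1 member regions were lower and 0 higher, and 23 pathway regions were lower at 2 h. The labels give only a replicate number, so whether same-numbered libraries were paired is not known. Deviations of their normal scores correlated by 0.017 to 0.04. Replicate 1 had the higher background and the longer list at every time, and ranks leave out such differences in depth. Of the alternatives to comparison values, 220 stayed near the main value, among them counts of 0 that stayed 0, and 92 moved. Those that moved include the median percentile shift at 2 h, which changed sign. Peaks of 11 to 14 fragments limit the precision of single regions, and a weak site can go uncalled.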
